A study of Mus musculus with 16 samples.

Results

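Cytochrome P450 genes were studied in the livers of mice fed a low-fat (LF) or an AMLN diet, the latter a diet rich in fat, sugars and cholesterol that gives steatohepatitis in mice. All protein-coding genes whose symbol is Cyp followed by a family number were taken from either deposited table, except Cyp4a14 and Cyp51, which gave 33 of the 5205 genes listed. Of the 98 protein-coding P450 genes that this naming rule finds in the GENCODE M21 annotation, the other genes are not analysed here. Liver RNA came from 16 male mice on a C57BL6 background, with 4 mice in each group. TSP1ΔPf4 mice carry floxed Thbs1, the gene of thrombospondin 1, together with a Pf4-Cre transgene that deletes it in megakaryocytes and the platelets they form. TSP1F/F mice are littermates with the same floxed gene and no Cre, so both genotypes share the floxed allele. Each genotype was fed either diet for 32 weeks, and the labels do not give the age of the animals. The labels call the genotypes WT and KO and number 4 livers in each group without naming litters or dates, so p-values measure the spread between these samples. Thbs1 is listed for TSP1F/F mice only, so these values cannot check the genotype labels.

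Cytochrome P450 enzymes are heme proteins that add oxygen to lipids, steroids, bile acid precursors and drugs, with electrons passed on from NADPH by P450 reductase or, in mitochondria, by ferredoxin. Most are made in hepatocytes, where members of the Cyp2, Cyp3 and Cyp4 families clear foreign compounds and act on fatty acids and steroids, while members of the higher families make bile acids and hormones. Many mouse P450 genes lie in tandem clusters of near-identical copies, and a number of them are expressed at different levels in male and female liver.

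The tables hold counts, counts divided by a size factor, and FPKM for each mouse. They hold only genes with an unadjusted p-value under 0.05 for diet in the authors' own test, 2558 genes for TSP1F/F and 3399 for TSP1ΔPf4 mice, 752 of them in both. Every member was therefore selected for a diet difference in the same mice, and neither its diet p-value nor its lack of overlap is independent evidence. Library totals ranged from 17127965 to 39753019, and within TSP1ΔPf4 mice all AMLN-fed libraries were larger than all LF-fed ones. CPM values are counts scaled to a library total of 1000000. TSP1F/F mice had 22 members listed and TSP1ΔPf4 mice 21, with 10 in both. No Cyp1 gene was listed in either genotype. In 29 members, the counts were high enough for a test in at least one genotype.

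Members lay in clusters, of which the Cyp2c genes on chromosome 19 supplied the largest number. Sequences upstream of start sites were taken from RefSeq (GRCm38.p6), which had an entry for 26 members. Cyp21a1, Cyp2c54, Cyp2d12, Cyp4a10, Cyp4a31, Cyp7a1 and Cyp7b1 had none in this table. In the 250 bases before the start site, CAAAGTCCA, a motif of the kind bound by the hepatocyte factor HNF4, was present on either strand in 6 of the 26 members (23.1%) and in 0.384% of the 32851 start sites in the table. The members with it were Cyp2c40, Cyp2c67, Cyp2c68, Cyp2c69, Cyp2c70 and Cyp3a16. Of the other motifs searched on both strands, TATAAA was in 12 members (46.2%, against 12.4% of all start sites), AGGTCA, a nuclear receptor motif, in 6 (23.1% against 14%), TTGCNNAA, a form of C/EBP site, in 7 (26.9% against 9.56%) and TTCNNNGAA, a STAT site, in 0 (0% against 7.02%). CAAAGTCCA matches overlapped no match of another motif. These counts describe letters in a window, and tandem copies share their sequence by descent.

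The 5 Cyp2c windows below are shown because 4 of these genes were lower on the AMLN diet in every genotype that lists them while the fifth, Cyp2c70, was higher. Capitals mark CAAAGTCCA, and each window runs 5′ to 3′ on the reverse strand of chromosome 19.
Cyp2c67 (chr19:39649123-39649267): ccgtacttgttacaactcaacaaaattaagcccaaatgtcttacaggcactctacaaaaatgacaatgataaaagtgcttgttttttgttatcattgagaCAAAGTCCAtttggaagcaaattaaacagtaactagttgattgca
Cyp2c68 (chr19:39741134-39741278): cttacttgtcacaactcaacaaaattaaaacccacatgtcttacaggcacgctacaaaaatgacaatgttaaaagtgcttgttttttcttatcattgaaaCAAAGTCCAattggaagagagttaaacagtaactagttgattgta
Cyp2c40 (chr19:39812815-39812959): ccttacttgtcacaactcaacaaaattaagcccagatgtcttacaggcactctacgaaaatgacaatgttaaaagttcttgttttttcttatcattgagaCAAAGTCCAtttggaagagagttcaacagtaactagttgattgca
Cyp2c69 (chr19:39886800-39886944): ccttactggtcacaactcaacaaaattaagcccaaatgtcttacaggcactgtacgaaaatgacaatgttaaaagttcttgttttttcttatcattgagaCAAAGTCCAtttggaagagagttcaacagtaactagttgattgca
Cyp2c70 (chr19:40187306-40187450): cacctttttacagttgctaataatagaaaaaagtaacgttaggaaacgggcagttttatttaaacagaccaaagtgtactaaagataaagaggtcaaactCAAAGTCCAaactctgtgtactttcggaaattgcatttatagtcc
Aligned on the capitals without gaps, Cyp2c40 and Cyp2c69 were alike at 142 of 145 bases and Cyp2c67 and Cyp2c40 at 134, whereas Cyp2c70 was alike to the other four at 44 or 45. The match lay from 45 bases before the RefSeq start site in Cyp2c40 to 125 in Cyp2c67. These distances depend on where RefSeq places each start, since the match lay at 75 bases in Cyp2c69, whose window is nearly that of Cyp2c40. The regions before Cyp2b9 and Cyp2b13, on chromosome 7, are shown because both genes had higher means on the AMLN diet and their sequences are nearly the same. They differed at 2 of 250 bases, given in capitals, and run 5′ to 3′ on the forward strand.
Cyp2b9 (chr7:26173159-26173408): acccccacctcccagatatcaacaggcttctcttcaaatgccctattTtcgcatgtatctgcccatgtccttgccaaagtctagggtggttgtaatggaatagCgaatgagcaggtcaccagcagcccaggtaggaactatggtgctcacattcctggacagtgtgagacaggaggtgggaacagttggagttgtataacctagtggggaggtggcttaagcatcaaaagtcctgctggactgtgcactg
Cyp2b13 (chr7:26061245-26061494): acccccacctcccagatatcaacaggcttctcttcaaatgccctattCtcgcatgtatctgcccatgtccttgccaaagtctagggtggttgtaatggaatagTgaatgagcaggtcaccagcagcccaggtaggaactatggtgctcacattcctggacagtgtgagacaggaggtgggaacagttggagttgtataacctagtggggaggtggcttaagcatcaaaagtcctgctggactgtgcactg

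Copies of this kind limit how reads can be assigned. At least 10% of the 100-base stretches of a member's transcripts also occurred in transcripts of other genes for 8 members. These were Cyp2c69 (35.4%), Cyp2c40 (34.4%), Cyp2c67 (23.7%), Cyp2c68 (19.8%), Cyp4a32 (18.2%), Cyp2d11 (12.2%), Cyp4a10 (12.2%) and Cyp2d10 (11.7%). The counts of these 8 are less certain for that reason. Reads were 150 bases long and paired, so the shares do not measure how far the counts are off. Members under that cut-off can have the same limit, such as Cyp2b13 (9.29%). No such stretch was shared for 12 members, among them Cyp7b1, Cyp7a1, Cyp2c38, Cyp2c70, Cyp2d40, Cyp2j5 and Cyp4f18.

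To determine how the AMLN diet altered P450 expression, the diets were compared within each genotype. In TSP1F/F livers, 10 of 18 tested members were lower and 8 were higher on the AMLN diet, with a median log2 fold change of −0.69, where all 2096 genes tested had a median of 1.15. In TSP1ΔPf4 livers, 16 of 18 tested members were lower and 2 were higher, with a median of −0.75, where all 3089 genes tested had −0.54. A call required an adjusted p under 0.05 and a log2 fold change beyond 0.25 in either direction, by edgeR (quasi-likelihood) with Benjamini-Hochberg adjustment over all 21951 protein-coding genes. No member was called in either genotype. The same test called 1.91% of genes tested in TSP1F/F and 0.874% in TSP1ΔPf4. At an unadjusted p under 0.05, 15 of 18 members passed in TSP1F/F (80.2% of genes tested) and 16 of 18 in TSP1ΔPf4 (85.8%), shares near those of all genes in tables selected at that level.

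When the adjustment covered only the genes in each table, 5 members passed as higher (38.5% of genes tested) and 5 as lower (15.1%) in TSP1F/F livers. In TSP1ΔPf4 livers, 1 passed as higher (26.7%) and 10 as lower (44.1%). With DESeq2's own size factors, adjusted over all protein-coding genes, 1 member was called higher (11.9% of genes tested) and 5 lower (17.2%) in TSP1F/F, and 3 were called higher (26.8%) and 4 lower (9.36%) in TSP1ΔPf4, the 3 being Cyp21a1, Cyp2b10 and Cyp2b13, whose counts did not pass edgeR's filter. The lower members were Cyp2c67, Cyp2d11, Cyp2j5, Cyp4a10 and Cyp7b1 in TSP1F/F and Cyp2c54, Cyp2c67, Cyp2d10 and Cyp2d40 in TSP1ΔPf4, and the higher one in TSP1F/F was Cyp4f16. That scaling shifted the median fold change of all tested genes by −0.37 in TSP1F/F and by 0.35 in TSP1ΔPf4 on the log2 scale. Among tested members, the 4 AMLN-fed mice lay above all LF-fed mice for 3 (36.6% of genes tested) and below them for 4 (15.6%) in TSP1F/F. In TSP1ΔPf4 they lay above for 1 (20.4%) and below for 9 (29.1%). By family, TSP1F/F livers had 5 Cyp2 members higher and 7 lower, 2 Cyp4 members each way, the 1 tested Cyp3 member higher and Cyp7b1 lower. In TSP1ΔPf4 livers, 1 Cyp2 member was higher and 12 were lower, 1 Cyp4 member went each way, and the tested Cyp3 and bile acid members were lower. The plot of fold changes shows the split in TSP1F/F and the predominance of lower values in TSP1ΔPf4.

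**Figure D1:**
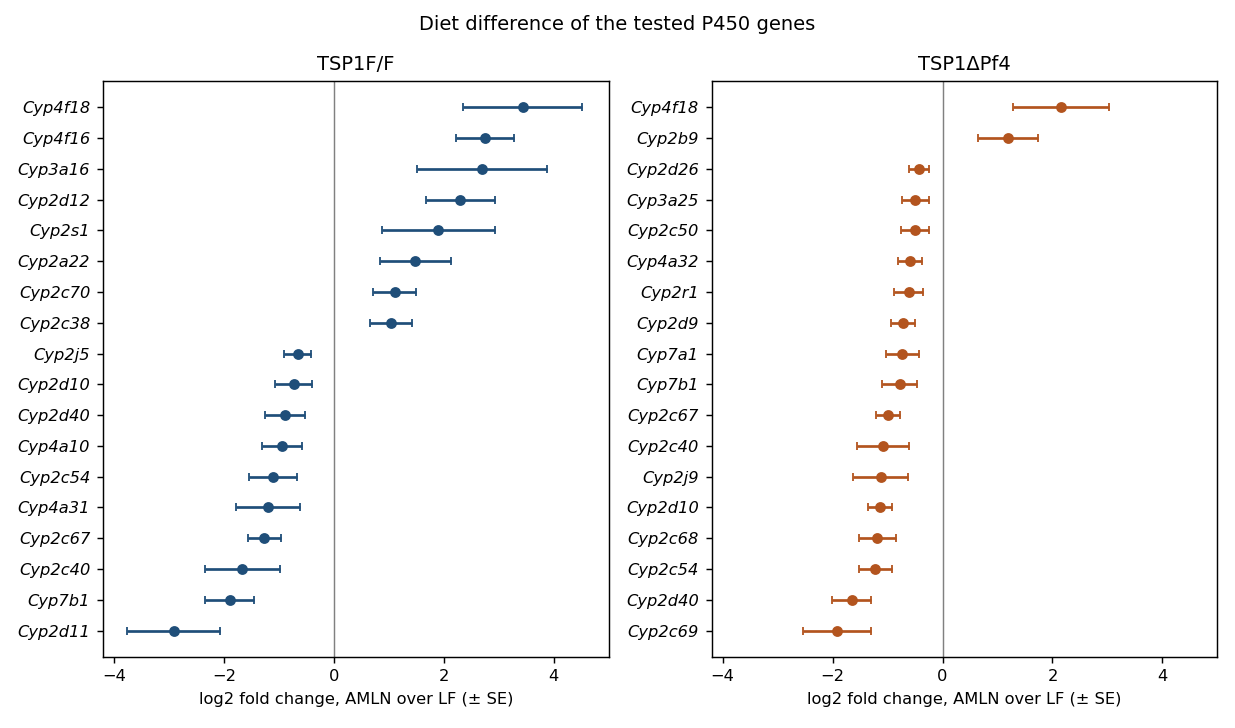
Log2 fold change of AMLN-fed over LF-fed mice for the 18 tested P450 genes of each genotype, fitted with edgeR from 4 mice per diet. Points are estimates, bars are standard errors and the vertical line marks no difference. In TSP1F/F 10 genes lie below 0 and 8 above, and in TSP1ΔPf4 16 lie below and 2 above.

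As a sum, the members took a smaller share of the library on the AMLN diet. Summed over the 22 listed members, they made up 0.5, 0.488, 0.609 and 0.649% of the library total in LF-fed TSP1F/F mice and 0.333, 0.396, 0.182 and 0.402% in AMLN-fed mice. AMLN replicate 3 was the lowest, and the diets did not overlap. Over the 21 members listed in TSP1ΔPf4 mice, the share was 0.779, 0.725, 0.836 and 0.838% on LF and 0.403, 0.523, 0.412 and 0.525% on AMLN, again without overlap. Abundant genes weigh most in these sums. In TSP1F/F mice these were Cyp4a10 (mean 2012 CPM on LF and 1049 on AMLN) and Cyp2d10 (1440 and 868). In TSP1ΔPf4 mice they were Cyp2d9 (1777 and 1081), Cyp2d10 (1478 and 671) and Cyp2d26 (1333 and 990). The sums thus do not describe every member, and 8 of 18 tested members in TSP1F/F and 2 of 18 in TSP1ΔPf4 were higher on AMLN. The 2 genotypes list different genes, so these sums are not compared between them. In the 10 members listed in both, the share was 0.281 ± 0.0608% on LF and 0.145 ± 0.0522% on AMLN in TSP1F/F (SD, n = 4 mice), and 0.283 ± 0.0493% and 0.130 ± 0.0280% in TSP1ΔPf4 (SD, n = 4).

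Of 12 hepatocyte markers, 4 were listed in TSP1F/F mice, all lower on AMLN, and 6 in TSP1ΔPf4 mice, 5 lower and 1 higher. The unlisted markers have no values here, so the listed ones do not stand for the whole list. The 4 listed in both genotypes were Serpina1a, Serpina1c, Ttr and Asgr1, which encode secreted plasma proteins and a liver surface receptor. These 4 moved with the P450 sum. Their summed level was 9800.0 ± 1240.0 CPM on LF and 5690.0 ± 1720.0 on AMLN in TSP1F/F mice (SD, n = 4), and ranged from 9175 to 10790.0 on LF and from 5503 to 7222 on AMLN in TSP1ΔPf4 mice. The diets did not overlap in either genotype. The lowest of the 16 mice in this sum, AMLN-fed TSP1F/F replicate 3 at 3431 CPM, was also the lowest in summed P450 share. Divided by the markers' sum in the same mouse, all listed members stood at 0.576 ± 0.0740 on LF and 0.577 ± 0.0861 on AMLN in TSP1F/F mice (SD, n = 4), and the diets overlapped (two-sided exact permutation test, p = 0.971). In TSP1ΔPf4 mice the ratio was 0.798 ± 0.0861 and 0.747 ± 0.0878 (SD, n = 4, two-sided exact permutation test, p = 0.429). This scaling was chosen after the values were seen, and the markers had been selected for a diet difference as the members were. All 4 were lower on AMLN, so dividing by them raises the AMLN ratios. The overlap of the ratios therefore cannot show whether the P450 fall followed hepatocyte content. In bulk liver, fewer hepatocytes and less RNA of these genes per hepatocyte cannot be told apart.

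Relative to the hepatocyte markers, 8 of the 18 TSP1F/F members and 11 of the 18 TSP1ΔPf4 members were lower on AMLN. The 4 AMLN-fed mice lay above all LF-fed mice for 6 TSP1F/F members (51.5% of genes tested on this scale) and below for 0 (0.859%). In TSP1ΔPf4 mice they lay above for 1 (39%) and below for 1 (2.56%). The member that stayed below was Cyp2d10, and those above were Cyp2a22, Cyp2c38, Cyp2c70, Cyp2d12, Cyp4f16 and Cyp4f18 in TSP1F/F and Cyp4f18 in TSP1ΔPf4. Markers of several other cell types were higher. All 12 macrophage markers tested were higher on AMLN in TSP1F/F, 3 of them called, and their summed level ranged from 80.5 to 544 CPM on LF and from 567 to 2620.0 on AMLN. All 11 tested in TSP1ΔPf4 were higher, 3 of them called, with 58.1 to 128 CPM on LF and 186 to 277 on AMLN. Stellate cell markers were higher for 7 of 7 genes in TSP1F/F, 3 of them called, and 4 of 4 in TSP1ΔPf4 with 0 called, and summed to 22 to 49.3 CPM on LF and 115 to 262 on AMLN in TSP1F/F and to 18.4 to 31.2 and 27.2 to 113 in TSP1ΔPf4. Each diet call of a macrophage or stellate cell marker was lost when at least 1 of the 8 mice was left out. No macrophage, stellate cell or hepatocyte marker listed was at 0 in all mice of a group except 1 stellate cell gene in LF-fed TSP1F/F mice. Cholangiocyte markers were higher for 3 of 3 genes in TSP1F/F and 2 of 2 in TSP1ΔPf4, endothelial markers for 3 of 3 and 2 of 3, and T cell markers for 1 of 1 and 1 of 2, with 0 called. The T cell markers summed to 0.214 to 0.496 CPM on LF and 3.27 to 5.99 on AMLN in TSP1F/F, and to 15.6 to 59.7 and 8.83 to 20.2 in TSP1ΔPf4, where 1 gene was at 0 on LF. Hepatocyte zone markers that are not P450 genes had 0 called, with pericentral genes higher for 1 of 1 in TSP1F/F and lower for 3 of 3 in TSP1ΔPf4, and periportal genes lower for 3 of 4 and 2 of 3. The part of cell makeup in the P450 results was not tested beyond these values.

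**Figure D2:**
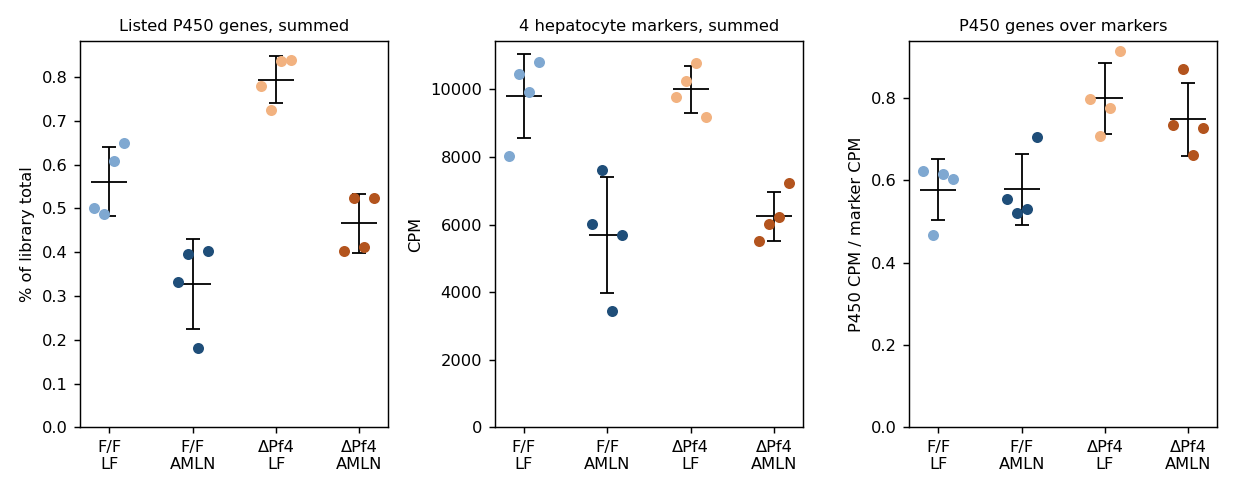
Left, summed listed P450 genes as percent of the library total; middle, summed CPM of 4 hepatocyte markers; right, the P450 sum divided by the marker sum. Each point is 1 mouse, and bars give mean ± SD of 4 mice. The first and second measures are lower on AMLN in both genotypes, whereas the ratio averages 0.576 and 0.577 in TSP1F/F. The F/F and ΔPf4 sums hold different genes, and the 4 markers had themselves been selected for a diet difference.

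Of the bile acid genes, the lowest fold change was that of Cyp7b1 (ENSMUSG00000039519, chr3:18071950-18243338, reverse strand of mm10), the oxysterol hydroxylase of the alternative bile acid pathway. In LF-fed TSP1F/F mice it had 293, 114, 431 and 210.5 CPM and in AMLN-fed mice 102, 96.6, 41.1 and 41.9. Every AMLN-fed mouse was below every LF-fed mouse, though LF replicate 2 was close to the AMLN range. The log2 fold change was −1.90 ± 0.45 (SE, adjusted p = 0.162 by edgeR with Benjamini-Hochberg adjustment). In TSP1ΔPf4 mice it had 213, 168, 221 and 191 CPM on LF and 173, 93.7, 55.9 and 139 on AMLN, where AMLN replicate 1 lay within the LF range. The log2 fold change there was −0.78 ± 0.31 (SE, adjusted p = 0.317 by edgeR with Benjamini-Hochberg adjustment). Relative to the hepatocyte markers, the log2 ratio of the Cyp7b1 means was −1.17 in TSP1F/F and −0.08 in TSP1ΔPf4. Cyp7a1 (ENSMUSG00000028240, chr4:6265612-6275633, reverse strand), the rate-limiting enzyme of the classical pathway, was listed in TSP1ΔPf4 mice only, with 209, 236, 165 and 159 CPM on LF and 151, 56.2, 115 and 142 on AMLN. The diets did not overlap, AMLN replicate 2 was the lowest, and the log2 fold change was −0.73 ± 0.30 (SE).

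Cyp21a1, a steroid hydroxylase of the adrenal gland, was near the counting limit in liver and did not pass edgeR's count filter in the diet comparisons. It had 0, 0, 0.276 and 0.3 CPM in LF-fed and 1.21, 2.78, 1.66 and 0.327 in AMLN-fed TSP1F/F mice, at most 8 reads in any LF library. In TSP1ΔPf4 mice it had 0.159, 0, 0 and 0 on LF and 0.3, 0.74, 0.446 and 0.517 on AMLN. The LF-fed TSP1ΔPf4 libraries held 3 reads or fewer, so the AMLN mean was at least 3.14-fold above the floor of 3 reads per library. The diets did not overlap in either genotype.

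Members of the Cyp2c subfamily, which act on drugs and arachidonic acid, gave the most listed genes. Cyp2c67 (ENSMUSG00000062624, chr19:39608842-39649051, reverse strand) had 434, 393, 805 and 443 CPM in LF-fed and 249.5, 216, 151 and 248 in AMLN-fed TSP1F/F mice. In TSP1ΔPf4 mice it had 460.5, 353, 589.7 and 428 and 242, 193, 208 and 277. The AMLN-fed mice of both genotypes lay below all LF-fed mice, and LF-fed TSP1F/F replicate 3 stood far above its group. The log2 fold changes were −1.26 ± 0.30 (SE, adjusted p = 0.171 by edgeR with Benjamini-Hochberg adjustment) and −0.99 ± 0.22 (SE, adjusted p = 0.0977). Cyp2c54, a nearby gene, had 266, 456, 376 and 381 CPM on LF and 135, 231, 51.6 and 269 on AMLN in TSP1F/F, with overlap at AMLN replicate 4 and a log2 fold change of −1.11 ± 0.44 (SE). In TSP1ΔPf4 mice its values were 531, 392, 501 and 479 on LF and 133, 240.2, 123 and 321 on AMLN, without overlap, and the log2 fold change was −1.22 ± 0.31 (SE, adjusted p = 0.125 by edgeR with Benjamini-Hochberg adjustment).

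Cyp2c40, an arachidonic acid hydroxylase, was expressed at a low level and spread widely between mice. Its values were 4.33, 8.41, 12.5 and 4.35 CPM on LF and 5.26, 0.718, 0.73 and 2.61 on AMLN in TSP1F/F, and 5.21, 6.33, 16.8 and 11.8 and 7.77, 1.77, 3.67 and 5.64 in TSP1ΔPf4. AMLN replicate 1 of each genotype, and AMLN replicate 4 of TSP1ΔPf4, lay within the LF range. The log2 fold changes were −1.66 ± 0.68 (SE) and −1.09 ± 0.47 (SE), the latter −0.72 without LF replicate 3. Both Cyp2c68 and Cyp2c69, its neighbours, were listed in TSP1ΔPf4 mice only. Cyp2c68 had 299.5, 279, 746 and 339 CPM on LF and 145, 158, 168 and 257 on AMLN, without overlap, and a log2 fold change of −1.19 ± 0.34 (SE), or −0.75 without LF replicate 3. Cyp2c69 had 3.98, 2.61, 13.9 and 17.1 on LF and 4.2, 0.987, 1.47 and 3.23 on AMLN, with LF replicates 3 and 4 high and the other LF mice inside the AMLN range, and a log2 fold change of −1.92 ± 0.62 (SE). Cyp2c50 had 864, 684, 606 and 714 on LF and 318, 693, 472 and 546 on AMLN, where AMLN replicate 2 lay within the LF range, and its log2 fold change was −0.50 ± 0.25 (SE), or −0.33 without AMLN replicate 1.

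Other genes of the same cluster went the other way in TSP1F/F livers, where both were listed. Cyp2c70 (ENSMUSG00000060613, chr19:40153353-40187333, reverse strand), which makes the muricholic acids of mouse bile, had 71.7, 178, 164 and 105 CPM on LF and 346, 234, 135 and 406 on AMLN. AMLN replicate 3 lay within the LF range and the other AMLN mice lay above it. The log2 fold change was 1.11 ± 0.39 (SE, adjusted p = 0.431 by edgeR with Benjamini-Hochberg adjustment). Cyp2c38, an arachidonic acid epoxygenase, was higher too, from 14.3 to 56.2 CPM on LF and from 50.4 to 98.6 on AMLN, with a log2 fold change of 1.04 ± 0.38 (SE). Relative to the hepatocyte markers, the diets no longer overlapped for these 2 genes, with log2 ratios of means of 1.93 and 1.83. On that scale, 51.5% of genes tested in TSP1F/F lay wholly higher on AMLN, so this separation is not particular to them.

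Of the Cyp2d genes on chromosome 15, Cyp2d10, Cyp2d26 and Cyp2d9 were among the most abundant members per length. The mean FPKM of Cyp2d10 on LF was 874 in TSP1F/F and 897 in TSP1ΔPf4 mice. It had 1085, 1462, 1679 and 1532 CPM on LF and 760.0, 1161, 428 and 1123 on AMLN in TSP1F/F, and AMLN replicates 2 and 4 lay within the LF range. The log2 fold change was −0.73 ± 0.34 (SE, adjusted p = 0.681 by edgeR with Benjamini-Hochberg adjustment). In TSP1ΔPf4 mice it had 1209, 1299, 1759 and 1644 on LF and 600.2, 661, 566 and 856 on AMLN without overlap, and a log2 fold change of −1.14 ± 0.21 (SE, adjusted p = 0.0737 by edgeR with Benjamini-Hochberg adjustment), the smallest adjusted p of any member in that genotype. Cyp2d40 had 141, 206, 356 and 153 CPM on LF and 109, 176, 69.6 and 107 on AMLN in TSP1F/F, with overlap, and a log2 fold change of −0.89 ± 0.37 (SE), or −0.53 without LF replicate 3. In TSP1ΔPf4 it had 120.5, 121, 350.2 and 256 and 77.9, 61.2, 48.9 and 81.8 without overlap, and −1.65 ± 0.36 (SE, adjusted p = 0.0945 by edgeR with Benjamini-Hochberg adjustment). LF replicate 3 had the highest Cyp2d40 of its group in both genotypes.

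Cyp2d9, a testosterone hydroxylase typical of male liver, was listed in TSP1ΔPf4 mice, with 1867, 1636, 1491 and 2113 CPM on LF and 983, 1481, 880.3 and 979 on AMLN. The diets did not overlap, though LF replicate 3 and AMLN replicate 2 were close, and the log2 fold change was −0.72 ± 0.22 (SE). Cyp2d26 had 1336, 1486, 1059 and 1452 on LF and 882, 1036, 941 and 1102 on AMLN in the same mice, with overlap at AMLN replicate 4, and a log2 fold change of −0.43 ± 0.19 (SE). The other Cyp2d members were scarce and were listed in TSP1F/F only. Cyp2d11 had 0.365, 2.04, 4.8 and 8.48 CPM on LF and 0.303, 0.629, 0.402 and 0.762 on AMLN, where LF replicate 1 lay within the AMLN range, and a log2 fold change of −2.91 ± 0.85 (SE). Cyp2d12 was higher, with 0.47, 0.911, 0.331 and 0.413 on LF and 1.48, 3.01, 2.29 and 3.76 on AMLN without overlap, and a log2 fold change of 2.30 ± 0.62 (SE).

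**Figure D3:**
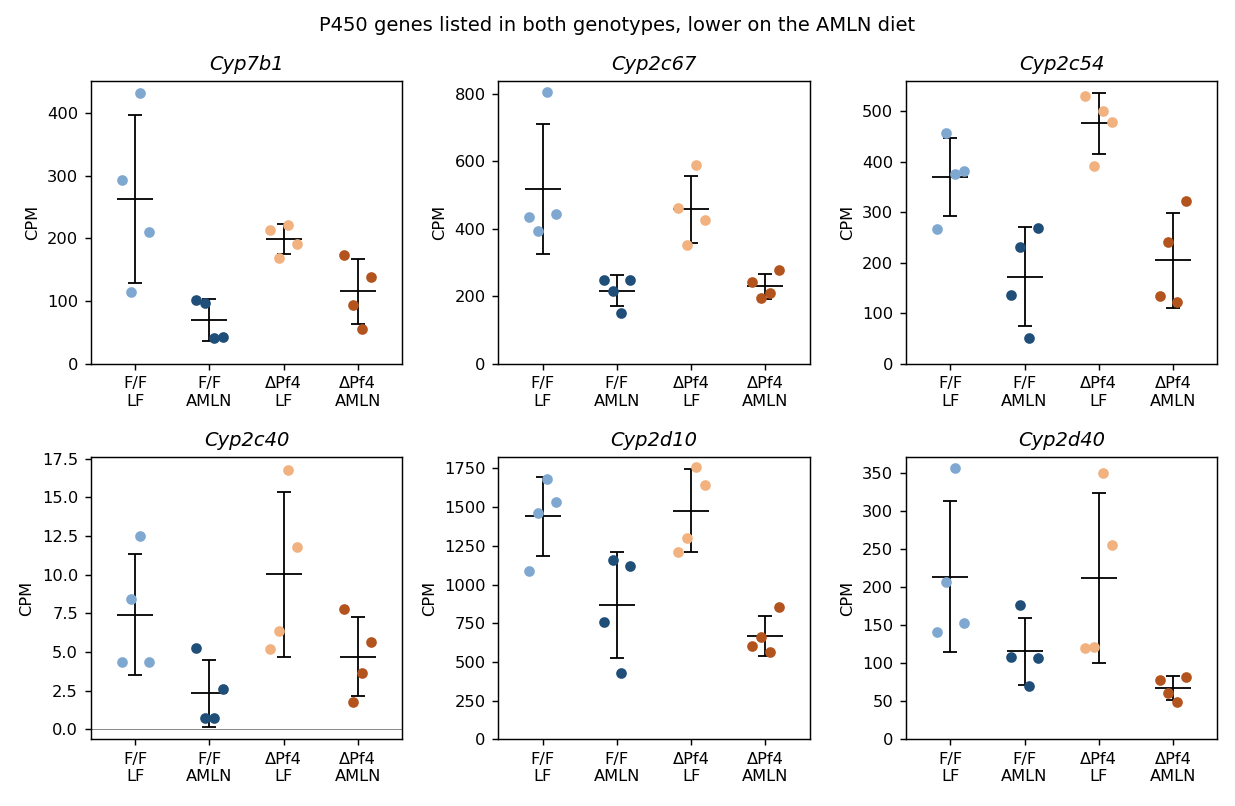
CPM of 6 P450 genes listed in both genotypes, by group (x axis) with 1 point per mouse and bars for mean ± SD of 4 mice. Group means are lower on AMLN than on LF in each panel and each genotype, with all AMLN-fed mice below all LF-fed mice for Cyp7b1 in TSP1F/F, for Cyp2c67 in both genotypes, and for Cyp2c54, Cyp2d10 and Cyp2d40 in TSP1ΔPf4.

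The Cyp2b genes, of which Cyp2b10 is the phenobarbital-inducible form and Cyp2b9 and Cyp2b13 are typical of female liver, were scarce. Cyp2b9, listed in TSP1ΔPf4 mice, had 10.8, 11.2, 5.25 and 3.4 CPM on LF and 4.27, 13.8, 32.9 and 19.2 on AMLN. AMLN replicate 1 lay within the LF range and the other AMLN mice above it, and the log2 fold change was 1.19 ± 0.54 (SE), or 0.69 without AMLN replicate 3. Cyp2b13 did not pass edgeR's count filter in the diet comparisons, with 0, 0.429, 0 and 0 CPM on LF and 0.666, 2.42, 0.402 and 2.89 on AMLN in TSP1F/F, and 0, 0, 0 and 0 and 0, 0.535, 0.925 and 0.258 in TSP1ΔPf4. Overlap was present in both genotypes, and in TSP1ΔPf4 the AMLN mean was at least 2.69-fold above the floor of 3 reads per library. Cyp2b10 had 0, 0, 0 and 0.113 CPM on LF and 0.877, 1.44, 0 and 0.708 on AMLN in TSP1F/F, with overlap at a value of 0. In TSP1ΔPf4 it had 0, 0, 0 and 0 and 0.334, 0.535, 1.08 and 0.345 without overlap. Against that floor the AMLN means of Cyp2b10 were at least 5.08-fold higher in TSP1F/F and 3.6-fold higher in TSP1ΔPf4.

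The remaining Cyp2 members were each listed in a single genotype. Cyp2j5, an arachidonic acid epoxygenase of liver and kidney, had 502, 608, 671 and 566 CPM on LF and 404, 452, 266 and 363 on AMLN in TSP1F/F mice. The diets did not overlap, AMLN replicate 3 was the lowest, and the log2 fold change was −0.66 ± 0.25 (SE). Cyp2a22 had 1.83, 24.4, 4.91 and 15 on LF and 46.3, 31, 16.5 and 35 on AMLN in TSP1F/F, where LF replicate 2 exceeded AMLN replicate 3, and a log2 fold change of 1.48 ± 0.65 (SE). Cyp2s1, best known from epithelia outside the liver, had 2.45, 1.39, 0 and 0.263 on LF and 2.33, 1.57, 8.13 and 3.27 on AMLN in TSP1F/F. The highest value was that of AMLN replicate 3, the diets overlapped, and the log2 fold change was 1.90 ± 1.02 (SE), or 1.22 without AMLN replicate 3. In TSP1ΔPf4 mice, Cyp2j9 had 5.79, 5.8, 12.3 and 3.87 on LF and 0.801, 3.62, 3.95 and 4.35 on AMLN, with overlap, and a log2 fold change of −1.13 ± 0.50 (SE), or −0.70 without LF replicate 3. Cyp2r1, a vitamin D hydroxylase, was lower as well, from 8.33 to 16.6 CPM on LF and from 6.54 to 9.99 on AMLN, with a log2 fold change of −0.61 ± 0.26 (SE).

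Of the Cyp3 family, whose enzymes oxidise steroids and many drugs, 3 members were listed. Cyp3a25, a form of adult liver, had 578, 519, 763 and 502 CPM on LF and 262, 489, 449 and 476 on AMLN in TSP1ΔPf4 mice. The diets did not overlap, AMLN replicate 1 was the lowest, and the log2 fold change was −0.49 ± 0.25 (SE), or −0.33 without AMLN replicate 1. Cyp3a16, a form of fetal and newborn liver, had 0, 0.75, 0.276 and 0.225 on LF and 0.303, 0.808, 0.755 and 6.43 on AMLN in TSP1F/F mice. AMLN replicate 4 stood far above all other mice, and the log2 fold change of 2.70 ± 1.18 (SE) was 0.98 without it. Cyp3a57 had no reads in LF-fed TSP1F/F mice and from 0.151 to 0.708 CPM in AMLN-fed mice, a mean at least 2.58-fold above the floor of 3 reads per library.

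The Cyp4 members went in different directions by subfamily, and none was called. Cyp4a enzymes hydroxylate fatty acids at their ends and are classical targets of the fatty acid receptor PPARα. Cyp4a10 (ENSMUSG00000066072, chr4:115518264-115533649, forward strand) had the highest mean FPKM of the listed members in LF-fed TSP1F/F mice, at 954. It had 2127, 1363, 1555 and 3004 CPM on LF and 1068, 1235, 569.7 and 1322 on AMLN, without overlap, with AMLN replicate 3 the lowest. The log2 fold change was −0.94 ± 0.36 (SE, adjusted p = 0.498 by edgeR with Benjamini-Hochberg adjustment). Cyp4a31 had 31.9, 4.61, 16.8 and 33.3 on LF and 11.2, 9.56, 13.8 and 3.32 on AMLN in the same mice, where LF replicate 2 was inside the AMLN range, and a log2 fold change of −1.19 ± 0.58 (SE). Cyp4a32 was lower in TSP1ΔPf4 mice, from 41.2 to 63.8 CPM on LF and from 27 to 40.7 on AMLN, without overlap. Its log2 fold change was −0.59 ± 0.22 (SE). Relative to the hepatocyte markers, the diets overlapped for each of these Cyp4a genes. The log2 ratios of means were then −0.17 for Cyp4a10, −0.25 for Cyp4a31 and 0.098 for Cyp4a32.

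Both Cyp4f members were higher. Cyp4f16 (ENSMUSG00000048440, chr17:32536558-32551798, forward strand) had 0.418, 0.643, 0.827 and 1.24 CPM on LF and 4.24, 3.32, 6.31 and 7.52 on AMLN in TSP1F/F mice. No mouse overlapped, and the log2 fold change of 2.76 ± 0.53 (SE, adjusted p = 0.0788 by edgeR with Benjamini-Hochberg adjustment) had the smallest adjusted p of any member in that genotype. Cyp4f18 (ENSMUSG00000003484, chr8:71988482-72009626, reverse strand), which inactivates leukotriene B4 in myeloid cells, had 0, 0.643, 0 and 0.15 CPM on LF and 1.94, 1.53, 3.35 and 1.91 on AMLN in TSP1F/F. In TSP1ΔPf4 it had 0.637, 0, 0.467 and 0 and 0.834, 1.27, 0.893 and 1.94, and the diets overlapped in neither genotype. The log2 fold changes were 3.44 ± 1.08 (SE, adjusted p = 0.331 by edgeR with Benjamini-Hochberg adjustment) and 2.16 ± 0.87 (SE, adjusted p = 0.324). The macrophage markers given above moved in the same direction, and their part in the Cyp4f18 result was not tested.

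**Figure D4:**
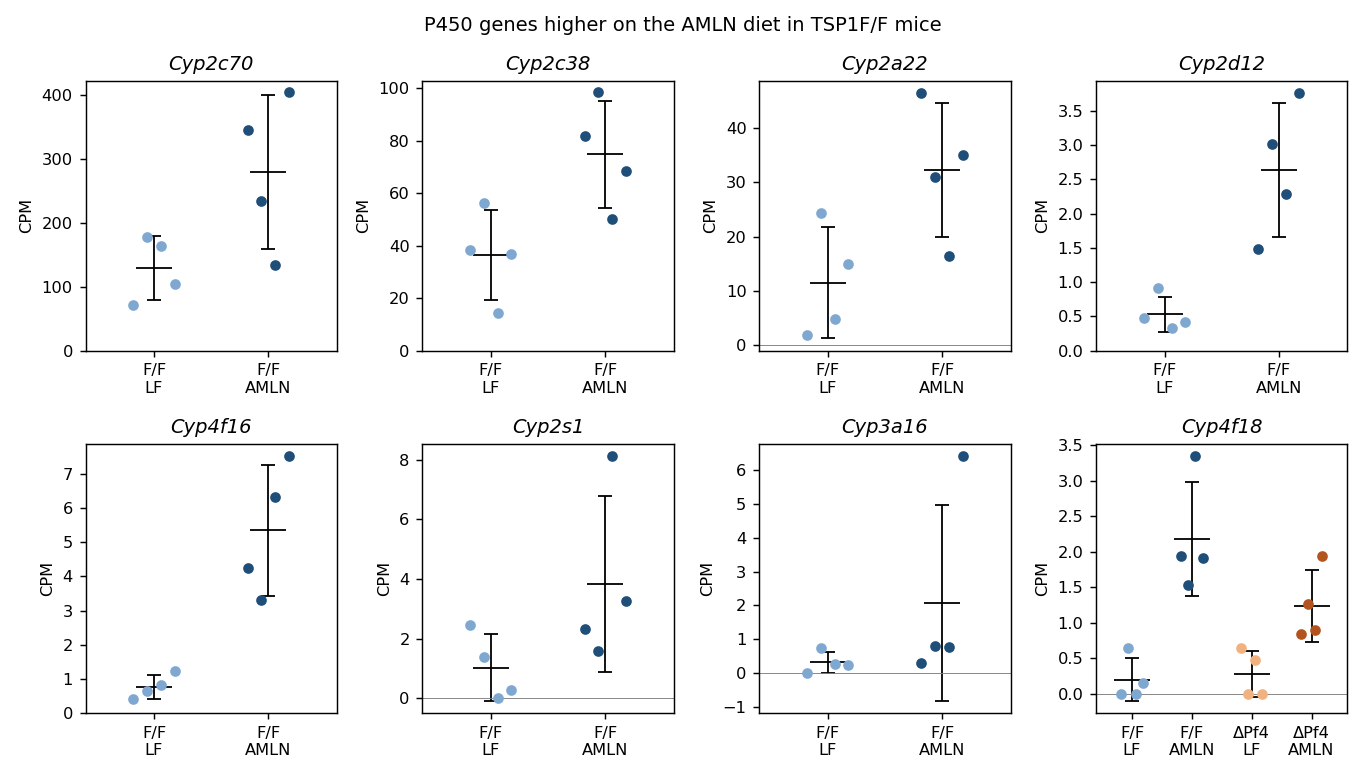
CPM of the 8 tested P450 genes that were higher on AMLN in TSP1F/F mice, with 1 point per mouse and bars for mean ± SD of 4 mice; Cyp4f18 is also shown in TSP1ΔPf4. Bars can run below 0 where the SD exceeds the mean. The diets do not overlap for Cyp2d12, Cyp4f16 and Cyp4f18, and a single mouse at 6.43 CPM carries most of the Cyp3a16 difference.

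To examine whether platelet TSP1 altered P450 levels, the genotypes were compared on each diet over the 10 members listed in both tables. On the AMLN diet, 4 of 10 members were higher and 6 were lower in TSP1ΔPf4 than in TSP1F/F livers, with a median log2 fold change of −0.37, against −0.38 over all 733 genes tested. That median was −0.10 with TMM scaling, so the genotype values depend on the scaling. All these genes were selected for a diet difference in both genotypes, so neither median need be a neutral reference. No member was called by edgeR, where 9% of genes tested were called, and 2 of 10 had an unadjusted p under 0.05, where 25.2% of genes tested did. All 10 members overlapped between the genotypes, whereas 2.59% of genes tested lay wholly higher and 12.4% wholly lower in TSP1ΔPf4. Cyp7b1, with means of 70.4 ± 33.5 CPM in TSP1F/F and 115 ± 51.3 in TSP1ΔPf4 (SD, n = 4), gave a log2 fold change of 0.71 ± 0.41 (SE, adjusted p = 0.313 by edgeR with Benjamini-Hochberg adjustment) and 0.96 with TMM. Cyp2d40, at 116 ± 44.4 and 67.5 ± 15.3 CPM (SD, n = 4), gave −0.78 ± 0.32 (SE, adjusted p = 0.146 by edgeR with Benjamini-Hochberg adjustment) and −0.51 with TMM.

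The others ranged from −1.85 ± 0.96 (SE) for Cyp2b13 to 1.01 ± 0.66 (SE) for Cyp2c40. Cyp2c40 was 1.82 without AMLN-fed TSP1F/F replicate 1 and 0.66 without AMLN-fed TSP1ΔPf4 replicate 1. Single AMLN-fed mice also moved Cyp7b1 to 0.45 without TSP1ΔPf4 replicate 1, Cyp2d40 to −0.50 without TSP1F/F replicate 2 and Cyp4f18 to −0.54 without TSP1F/F replicate 3. Cyp21a1, at 1.5 ± 1.02 and 0.501 ± 0.183 CPM (SD, n = 4), gave −1.58 ± 0.69 (SE) and had, with Cyp2d40, an unadjusted p under 0.05. Cyp4f18 gave −0.83 ± 0.51 (SE, adjusted p = 0.357 by edgeR with Benjamini-Hochberg adjustment), and 10 of 11 macrophage markers were also lower in TSP1ΔPf4, 5 of them called. Most genes went this way, with 536 of all 733 tested lower in TSP1ΔPf4. Cyp2c54, Cyp2c67 and Cyp2d10 had log2 fold changes of 0.25 ± 0.47 (SE), 0.09 ± 0.27 (SE) and −0.37 ± 0.34 (SE), and the first and second of these changed sign when single mice were left out.

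On the LF diet, 3 of the 6 tested members were higher and 3 were lower in TSP1ΔPf4 livers, from 0.44 ± 0.47 (SE) for Cyp2c40 to −0.40 ± 0.36 (SE) for Cyp7b1. Without LF-fed TSP1ΔPf4 replicate 3 Cyp2c40 was 0.075, and without LF-fed TSP1F/F replicate 3 Cyp7b1 was −0.054. No member passed edgeR's test, which called 0% of the 640 genes tested, and DESeq2 called 0 of 752 genes. By edgeR, 0 of 6 members had an unadjusted p under 0.05, where 44 genes (6.88%) did. The difference between the genotypes in their response to diet was tested by an interaction term, whose median over all 734 genes tested was −0.34, or 0.05 with TMM scaling. No member passed (0.409% of genes tested were called), and 0 of 10 had an unadjusted p under 0.05 (15% of genes tested). The smallest adjusted p was that of Cyp7b1, whose interaction on the log2 scale was 1.12 ± 0.58 (SE, adjusted p = 0.382 by edgeR with Benjamini-Hochberg adjustment). The genotypes were thus not shown to differ in their diet response for any shared member. The shared members had each been selected for a diet difference in both genotypes. Members listed in a single genotype, 12 in TSP1F/F and 11 in TSP1ΔPf4, could not enter this test.

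P450 enzymes depend on heme, on electron donors and on the receptors that drive their genes. Of 13 genes of heme synthesis and breakdown, 6 were tested in TSP1F/F livers with 1 higher and 5 lower on AMLN, and 4 were tested in TSP1ΔPf4 with 1 higher and 3 lower. The higher gene was Hmox1, the heme-degrading oxygenase of macrophages and stressed cells, which rose in TSP1ΔPf4 with a log2 fold change of 1.26 ± 0.21 (SE, adjusted p = 0.0498 by edgeR with Benjamini-Hochberg adjustment). This call was kept in 1 of the 8 fits that left out a mouse (adjusted p from 0.0373 to 0.183 by edgeR). By edgeR it was also lost with no filter (0.0528) and with the replicate block (0.181), whereas DESeq2 gave an adjusted p of 7.7e-08. In TSP1F/F, Hmox1 had a log2 fold change of 1.65 ± 0.40 (SE, adjusted p = 0.172 by edgeR with Benjamini-Hochberg adjustment). The lower genes included Alas1, the rate-limiting enzyme of heme synthesis in liver, at −0.76 ± 0.32 (SE) in TSP1F/F, and Alad at −0.64 ± 0.19 (SE) in TSP1ΔPf4, and none of the lower genes was called. Of 11 redox partners, 3 were tested, all in TSP1ΔPf4, and none was called. Their log2 fold changes were −0.69 for Cyb5a, a cytochrome that passes electrons to P450, −0.84 for Fdx1, a mitochondrial ferredoxin, and −0.56 for Pgrmc1, a P450-binding membrane protein.

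Of 34 transcription factors of P450 genes, 3 were tested in TSP1F/F and were lower on AMLN, and 5 were tested in TSP1ΔPf4 with 4 higher and 1 lower, with 0 called in either. In TSP1F/F, Nr0b2, the bile acid-induced repressor of bile acid synthesis, had a log2 fold change of −0.98 ± 0.39 (SE) and its activator Nr1h4, the bile acid receptor, −0.66 ± 0.26 (SE). In TSP1ΔPf4, Hnf4a, a hepatocyte regulator, had 0.60 ± 0.25 (SE), in the same livers where 5 of 6 hepatocyte markers were lower, Hnf4a being the sixth. Of 12 other bile acid synthesis genes, 2 were tested in TSP1F/F, both lower, and 4 in TSP1ΔPf4, 3 of them lower, with 0 called. Akr1c6, a steroid dehydrogenase listed in both, had −0.87 ± 0.45 (SE) and −1.18 ± 0.35 (SE).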

How the data were processed

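Liver RNA of 16 mice was sequenced. Per the labels, the processing notes name HISAT2, DESeq2 and mm10, whereas the methods name STAR, and which aligner made the deposited counts is not settled here. The deposited tables give, for each mouse, read counts per gene (not normalized), a signal equal to the counts divided by a size factor, and FPKM, as the authors computed them. They also hold the authors' fold changes and p-values for diet. The p-values were used only to check that each listed gene has an unadjusted value under 0.05, and the fold changes were not used.

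Library totals were recovered from counts, gene lengths and FPKM. Counts were tested with edgeR 4.0.16 (quasi-likelihood, filterByExpr, prior count 0.125, R 4.3.3). Diet p-values were adjusted by Benjamini-Hochberg over 21951 protein-coding genes, and genotype p-values over the genes tested in both tables. Calls required an adjusted p under 0.05 and a log2 fold change beyond 0.25 in either direction. Exact permutation tests are two-sided, and with 4 against 4 mice the smallest p they can give is 0.0286. A floor of 3 reads per library stood in for groups at or under it, and covers counting error only. Alternatives were DESeq2 1.42.0, no filter, the authors' size factors, TMM, all 16 mice in 1 fit, adjustment within each table, a replicate block and leaving out each mouse. Replicate numbers were not used as pairs in the main tests. On simulated counts with 200 genes changed by 8-fold, edgeR recovered 74.5% in the TSP1F/F diet comparison (2096 genes), 99% in the TSP1ΔPf4 one (3089 genes) and 98.5% in the genotype comparison on AMLN (733 genes). Most members changed by less than 8-fold, so these rates do not show how often changes of their size would be called.

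Members, gene lists (redox partners, heme, transcription factors, bile acid synthesis and cell type markers) and tests were chosen with earlier results of these data known. Every mouse's value was printed for members in both tables, for the 12 members of each diet comparison with the largest absolute log2 fold change and for the 5 members of each table with the highest mean FPKM, and for some other members chosen after their values were seen.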

Additional observations from a re-analysis of the deposited data

Results flagged for a closer look

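In 86 groups of 4 mice, 1 mouse stood apart from the others of its group for 6 gene levels by Dixon's test, and chance flags about 1 in 20 groups. In LF-fed TSP1F/F mice these were replicate 3 for Cyp2c67, at 805.4 CPM, replicate 4 for Cyp2b10, at 0.113 CPM, and replicate 2 for Cyp2b13, at 0.429 CPM. In LF-fed TSP1ΔPf4 mice they were replicate 3 for Cyp2c68, at 745.6 CPM, and replicate 1 for Cyp21a1, at 0.159 CPM. In AMLN-fed TSP1F/F mice, replicate 4 had 6.43 CPM of Cyp3a16. For Cyp2b10, Cyp2b13 and Cyp21a1 the other mice of the group had 0 reads.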

How the results depend on the processing

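No member was called in the diet, genotype or interaction comparisons with no filter, the authors' size factors, TMM, all 16 mice in 1 fit, a replicate block or any mouse left out, wherever each was run. DESeq2 called 6 members in TSP1F/F and 7 in TSP1ΔPf4 for diet, and adjustment within each table called 10 and 11, since it counts fewer tests. Over all genes the DESeq2 calls for diet split into 305 higher and 439 lower in TSP1F/F, against 38 and 2 by edgeR, and into 912 and 318 in TSP1ΔPf4, against 21 and 6. The cause was not tested. For genotype on AMLN, TMM gave 11 higher and 37 lower, DESeq2 17 and 56, and edgeR on library totals 4 and 62. With no filter 62 genes were called for diet in TSP1F/F, and for the interaction TMM called 15 and DESeq2 45, against 3. Leaving out 1 mouse gave 2 to 43 genes in TSP1F/F, 0 to 79 in TSP1ΔPf4, 22 to 84 for genotype on AMLN and 0 to 24 for the interaction.

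With the replicate number as a block, 0 members were called, and all-gene calls went from 40 to 3 for diet in TSP1F/F, from 27 to 0 in TSP1ΔPf4, from 66 to 116 for genotype on AMLN and from 3 to 0 for the interaction. The deviations of same-numbered mice correlated between −0.513 and 0.505, and every pair was over 0.1 in no comparison. Between the genotypes on AMLN the correlations were 0.321, 0.0816, 0.37 and 0.474, all positive, whereas signs were mixed in the other comparisons. Whether the number marks a shared litter or date was not tested.

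Relative to the hepatocyte markers, a scaling chosen after seeing the data, the log2 ratio of all listed members was 0.0025 in TSP1F/F and −0.09 in TSP1ΔPf4, and that of the shared members −0.19 and −0.45. The sign turned for Cyp2d10 (0.036) and Cyp2j5 (0.155) in TSP1F/F, and for Cyp2c50 (0.166), Cyp2d26 (0.242), Cyp2r1 (0.0951), Cyp3a25 (0.183) and Cyp4a32 (0.0977) in TSP1ΔPf4.

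Signs also turned in uncalled genotype values when single mice were left out. On AMLN, Cyp2b10 ranged from −0.88 to 0.16, Cyp2c54 from −0.054 to 0.55 and Cyp2c67 from −0.047 to 0.17. On LF, Cyp2c67 ranged from −0.33 to 0.11, Cyp2d10 from −0.076 to 0.12 and Cyp2d40 from −0.37 to 0.35. In the interaction, Cyp21a1 ranged from −0.49 to 3.31, Cyp2b10 from −0.37 to 3.03, Cyp2b13 from −1.86 to 2.97, Cyp2c54 from −0.42 to 0.19 and Cyp2c67 from −0.022 to 0.42, and Cyp2c54 was 0.14 with DESeq2 and 0.18 with TMM. Genes near 3 reads per library are limited by depth.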
